A study of Homo sapiens with 8 samples.

Results

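The comparison described here set HT1080 cells given compound C, an inhibitor of AMPK, against HT1080 cells given phenformin, an indirect activator of AMPK, both in normal growth medium. For each probe set, which is a group of short probes that read 1 transcript, the log2 value on the phenformin array was subtracted from the log2 value on the compound C array, so that a difference of 1 is a 2-fold higher value with compound C. Probe sets were followed when they reached a log2 value of 6 on at least 1 of the 8 arrays of the series. This rule kept 15503 of 54675 probe sets, and 13771 of them carried 1 gene symbol and stood for 8429 of the 19775 genes that the arrays name. The rule used no difference between the compounds. The last probe sets on each side of the limit had highest values of 5.9999 and 6.0001. The limit was reached on the compound C array alone by 306 probe sets and on the phenformin array alone by 106, and of these 133 and 39 were at least 2-fold higher on that array, calls that the limit itself favours.

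HT1080 is a human fibrosarcoma cell line. The study asked how compound C acts on the unfolded protein response, the program that cells start when proteins misfold in the endoplasmic reticulum, and compared it with phenformin and versipelostatin. The groups used here were 10 µM compound C, 100 µM phenformin and no compound (control), each for 18 h in normal growth medium, and the matching groups that also held 10 mM 2-deoxyglucose (2DG), a glucose analog that blocks glycolysis. Each group had 1 array, so no difference given here has a replicate check, and no p-value was computed. The compounds differed in dose by design, and compound C was dissolved in DMSO while phenformin was dissolved in water, so that compound, dose and solvent cannot be told apart.

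AMPK is a kinase of a catalytic alpha subunit with regulatory beta and gamma subunits, and it responds to a rise of AMP relative to ATP by slowing synthesis and speeding the breakdown of fuel. Compound C (dorsomorphin) occupies the ATP pocket of AMPK and is also known to block the type I receptors of bone morphogenetic proteins (BMPs), which signal to the nucleus through SMAD1, SMAD5 and SMAD9. Phenformin is a biguanide that inhibits complex I of the mitochondrial respiratory chain, which lowers ATP and activates AMPK without touching the kinase itself.

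The arrays of the pair were alike in their technical readings. The median log2 value over all probe sets other than controls lay between 3.12 and 3.28 on the 8 arrays, and the signal of ACTB at its 3′ end exceeded that at its 5′ end by 0.87 to 1.08. The poly-A control RNAs were lower by 0.19 on the compound C array than on the phenformin array, while in 2DG the poly-A controls were higher by 0.51 with compound C. Of 10 markers of fibrosarcoma or mesenchymal cells found in the annotation, 8 passed the limit. None of 11 markers of other cell types passed it, and the highest value of any of them on any array was 4.41.

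The compounds left most of the transcripts at like levels. Of the 15503 probe sets, 10785 (69.6%) differed by less than 1.5-fold and 13819 (89.1%) by less than 2-fold. With compound C, 1013 probe sets (6.53%) were at least 2-fold higher and 671 (4.33%) were lower by as much than with phenformin. The higher side thus held 60.2% of the calls, but 44.2% with arrays centred on their medians, 48.0% after quantile normalization and 79.2% when the poly-A controls set the scale, which moved the median of all genes to 0.25. Counted as genes, each read by its probe set with the highest mean, 466 (5.53%) were higher and 369 (4.38%) lower, and the median difference over all genes was 0.07. Only 29 genes were at least 4-fold higher and 25 at least 4-fold lower. Calls were more frequent among dim probe sets, and 14.3% were higher where the mean of both arrays was under 5.

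A second probe set of the same gene gave a first measure of how far such a difference can be trusted. Differences of probe sets of 1 gene scattered with an SD of 0.41 around each other. Of the 466 genes called higher, 173 had another probe set that was kept, and the median of the others pointed the same way in 150 (86.7%) and was itself at least 2-fold higher in 75 (43.4%). Of the 369 genes called lower, 132 had another one, which pointed the same way in 120 (90.9%) and was at least 2-fold lower in 65 (49.2%). It was at least 2-fold the other way for 1 of the higher genes and 3 of the lower genes. Probe sets of 1 gene read the same 2 RNA samples, so that these shares do not stand in for replicates.

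**Figure D1:**
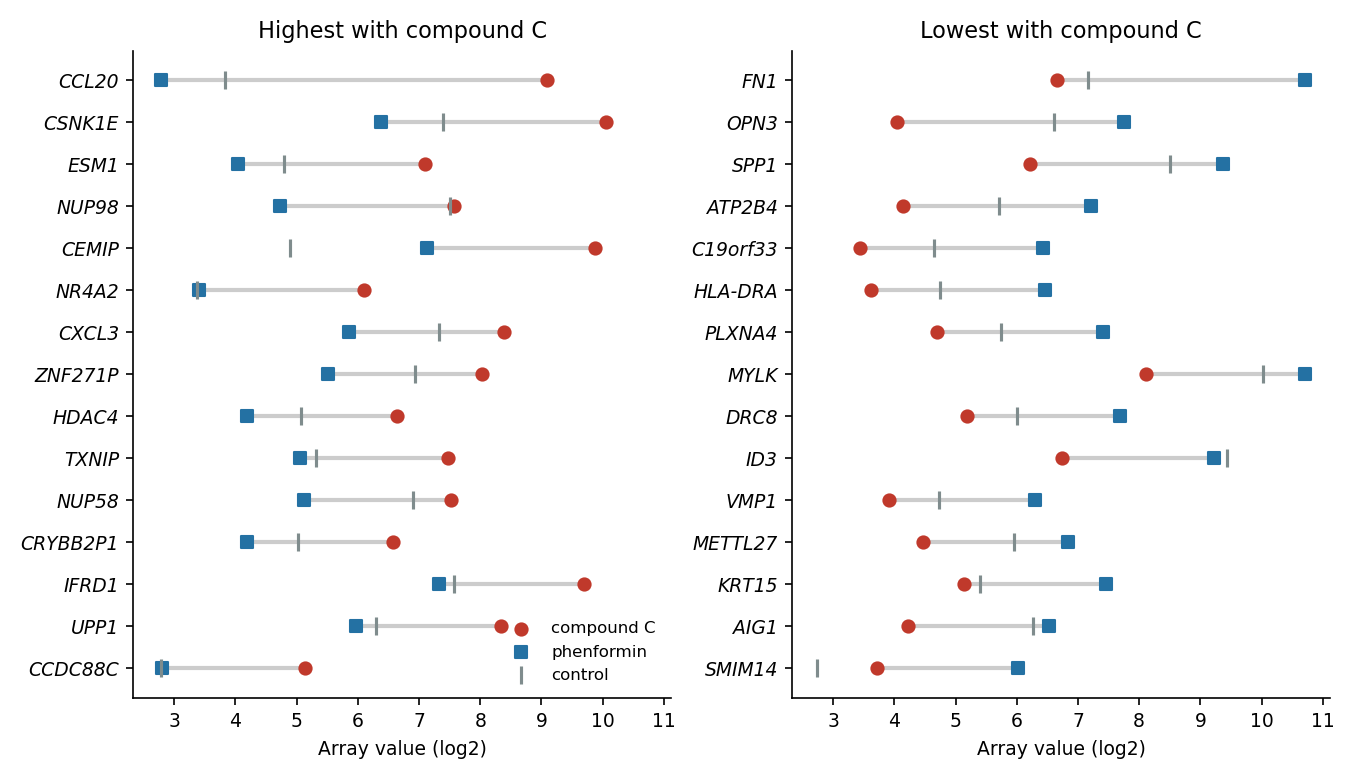
The 15 genes with the highest and the 15 with the lowest difference, each with its log2 value (x axis) with compound C (circles), phenformin (squares) and control (bars); grey lines join both compounds. CCL20 had the widest gap above, 9.09 with compound C against 2.79 with phenformin, and FN1 the widest gap below, 6.66 against 10.70.

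The gene with the largest difference was CCL20, a chemokine that draws cells with the receptor CCR6. CCL20 had a log2 value of 9.09 with compound C, 2.79 with phenformin and 3.83 in control. Its phenformin value was under the median of that array, so the difference was a bound of at least 5.93, or at least 61.0-fold. CXCL3, a chemokine that attracts neutrophils, had 8.39 with compound C, 5.85 with phenformin and 7.32 in control. CXCL8 (interleukin-8), with a like role, had 9.15 with compound C, 6.90 with phenformin and 8.27 in control, and the second probe set of CXCL8 differed by 2.46 where the first differed by 2.26. For each of these chemokines, the control lay between compound C and phenformin. The bases before the start sites of the 3 genes are shown because inflammatory genes of this kind are commonly switched on through kappaB sites, the DNA letters read by NF-kappaB. They are RefSeq sequence (GRCh38.p14), 5′ to 3′ on the strand of the gene and ending at the base before the start, from chr2:227813692-227813841 (+ strand), chr4:73740419-73740568 (+ strand) and chr4:74038690-74038839 (- strand). The capitals mark GGGAAAACC in CCL20, which begins 80 bases before the start, and GGAATTTCC in the other two, which begins 91 bases before the start in CXCL8 and 78 in CXCL3.
CCL20: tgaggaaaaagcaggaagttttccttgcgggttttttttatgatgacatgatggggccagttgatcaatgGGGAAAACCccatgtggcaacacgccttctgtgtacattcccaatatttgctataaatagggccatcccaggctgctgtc
CXCL8: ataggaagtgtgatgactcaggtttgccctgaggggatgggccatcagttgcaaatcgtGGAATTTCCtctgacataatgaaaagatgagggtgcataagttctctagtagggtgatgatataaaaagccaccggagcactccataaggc
CXCL3: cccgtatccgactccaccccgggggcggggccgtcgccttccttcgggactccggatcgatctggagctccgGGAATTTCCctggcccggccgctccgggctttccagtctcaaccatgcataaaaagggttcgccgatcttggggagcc

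CXCL8, CXCL3, NFKBIA and NFKBIZ held GGAATTTCC on either strand, which makes 4 of the 10 promoters of measured members of the inflammatory list (40.0%), against 0.429% of all 27305 promoters of 250 bases before the start. Among the 7077 promoters of kept genes, the share was 0.353%. GGGAAAACC was found in 1 of the 10 (10.0%), against 0.396% of all promoters and 0.480% of those of kept genes. Both spellings were chosen after the values of these genes were seen. The genes that share a match did not share a difference: NFKBIA, an inhibitor of NF-kappaB, differed by -0.97 and NFKBIZ, a nuclear relative of it, by 0.35.

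Other secreted inflammatory factors were higher with compound C as well. The list of inflammatory cytokines and NF-kappaB targets holds 23 genes, of which 13 were measured. Of the 13, 7 were at least 2-fold higher and 1 was lower, where 5.53% and 4.38% of all genes were. The median difference was 1.20, beside 0.07 over all genes. It was 0.78 at an expression limit of 7 and 0.22 with no expression limit. Named here after their values were seen, IL11 had 9.62 with compound C and 7.64 with phenformin, and IL1B had 12.21 with compound C and 10.76 with phenformin. IL6 and LIF, cytokines that act through gp130 as IL11 does, differed by 1.45 and 1.20. The 1 gene that was lower was MMP1, a collagenase, with 4.67 with compound C, 6.70 with phenformin and 7.01 in control. All 7 that were higher encode secreted signals, but not every secreted member was higher: IL1A, a cytokine, differed by -0.07 and MMP3, a protease, by -0.40. TNFAIP3, an inhibitor of NF-kappaB inside the cell, differed by 0.22. Against the same control array, 5 of the 13 were at least 2-fold higher and 2 lower with compound C, where 3.88% and 2.70% of all genes were. With phenformin, 0 were higher and 4 lower, where 2.66% and 2.17% of all genes were. Among these 4 was CCL20, whose phenformin value was under the array median. Its difference from control is thus only known as -0.67 or lower.

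TXNIP, an arrestin-like protein that binds thioredoxin and restrains glucose uptake, is known to be strongly induced by glucose. It had a log2 value of 7.48 with compound C, 5.05 with phenformin and 5.32 in control. All 3 of its probe sets agreed in direction, with differences of 2.42, 2.16 and 1.64. ARRDC4, a close relative, had 4.24 with compound C, 2.32 with phenformin and 2.46 in control, which gives a bound of at least 1.08. ARRDC3, another relative, went the other way with 6.49 with compound C, 7.60 with phenformin and 5.65 in control. Over the 6 measured genes of the list of arrestin relatives and the Mondo factors that induce them by glucose, 2 were higher and 1 lower. Of all genes, 5.53% were higher and 4.38% lower. The median of the list was 0.77, and 0.36 with no expression limit. The bases before the start of TXNIP (chr1:145996580-145996729, - strand, RefSeq, GRCh38.p14) are shown for the carbohydrate response element, CACGNG given 2 times with 5 bases between, whose 2 parts are in capitals and begin 88 bases before the start.
TXNIP: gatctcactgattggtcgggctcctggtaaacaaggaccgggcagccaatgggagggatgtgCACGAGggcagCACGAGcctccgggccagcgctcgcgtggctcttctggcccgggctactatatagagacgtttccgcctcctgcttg
This arrangement was chosen after the values were seen. It stood in 1 of 6 promoters of the list (16.7%), against 0.0586% of all promoters and 0.141% of those of kept genes. The E-box CACGTG stood in ARRDC4 and MLX, 2 of the 6 (33.3%), against 6.49% of all promoters and 9.62% of those of kept genes.

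ATF4 is the transcription factor that is translated when the initiation factor eIF2alpha is phosphorylated, and its targets supply amino acids and brake growth. Of 33 measured ATF4 targets, 8 were at least 2-fold higher with compound C than with phenformin and 0 were lower, where 5.53% and 4.38% of all genes were, with a median difference of 0.60 beside 0.07 over all genes and 27 above 0. STC2, a secreted glycoprotein, had 8.31 with compound C, 5.99 with phenformin and 6.39 in control, although its second probe set differed by 0.69. DDIT4 (REDD1), which restrains mTORC1, had 10.01 with compound C, 8.26 with phenformin and 6.45 in control. CHAC1, an enzyme that breaks down glutathione, had 6.11 with compound C, 4.71 with phenformin and 4.97 in control. CEBPB, a transcription factor, differed by 1.32.

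Both compounds lay above the control array for much of this list. Against the control array that they share, 22 of the 33 genes were at least 2-fold higher with compound C (median difference 1.33) and 9 with phenformin (median 0.56), where 3.88% and 2.66% of all genes were, and 0 were lower with either. ASNS, asparagine synthetase, had 11.39 with compound C, 10.93 with phenformin and 8.89 in control, so that both compounds stood far over the control and close to each other. ATF3, a transcription factor that ATF4 induces, likewise had 7.59 with compound C, 7.19 with phenformin and 5.13 in control. INHBE and GDF15, secreted members of the TGF-beta family, were higher than control by 3.30 and 3.07 with compound C and by 2.25 and 2.10 with phenformin. ASNS, ATF3, INHBE and GDF15 were named after their values were seen. The ATF4 transcript itself had 12.17 with compound C, 11.87 with phenformin and 11.48 in control.

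The bases before the start of CHAC1 (chr15:40953221-40953470, + strand, RefSeq, GRCh38.p14) are shown for the C/EBP-ATF response element, TGATGNAAN, whose match on the opposite strand is in capitals and begins 210 bases before the start.
CHAC1: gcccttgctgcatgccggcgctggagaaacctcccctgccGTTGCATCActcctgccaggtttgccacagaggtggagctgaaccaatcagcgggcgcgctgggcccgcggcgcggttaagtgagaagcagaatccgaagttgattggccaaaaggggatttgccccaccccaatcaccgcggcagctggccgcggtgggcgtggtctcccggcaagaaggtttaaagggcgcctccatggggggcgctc
ASNS, CHAC1 and ATF3 held this motif on either strand, 3 of 26 promoters of the list (11.5%). The motif stood in 3.18% of all promoters and 1.48% of those of kept genes. With differences of 0.46, 1.39 and 0.39, 1 of these 3 was at least 2-fold higher with compound C than with phenformin.

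**Figure D2:**
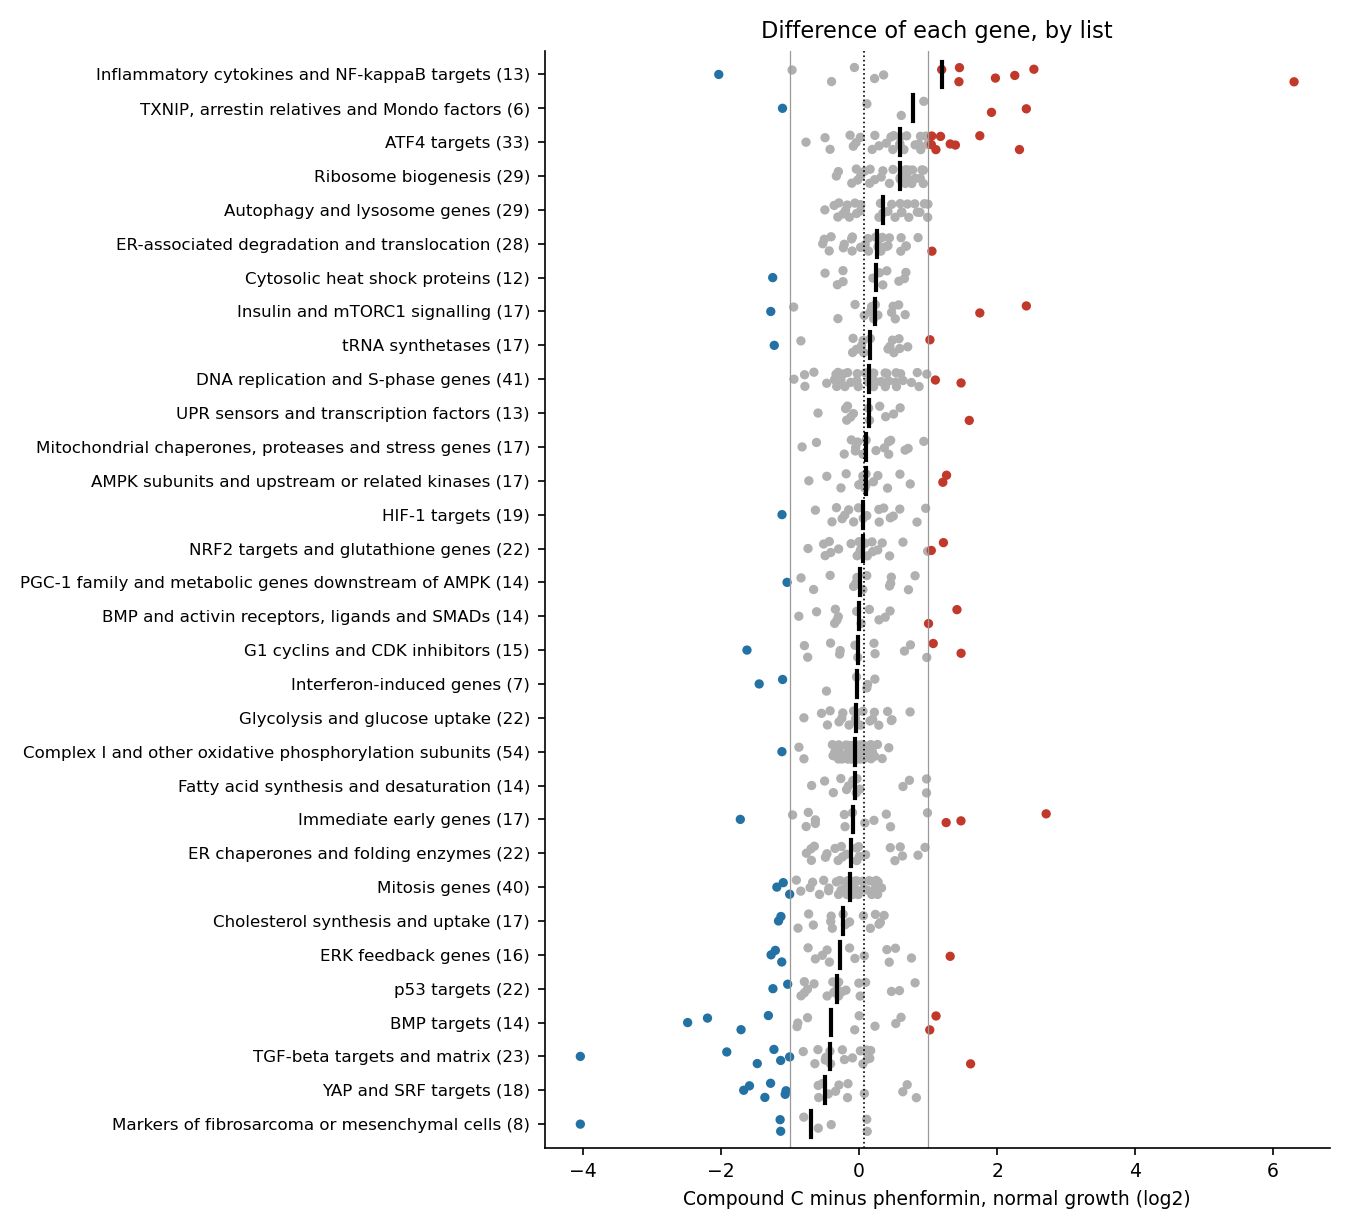
Compound C minus phenformin in normal growth (log2, x axis) for each measured gene of 32 lists (points, with the number of genes in brackets), with the median of each list as a black bar and that of all genes, 0.07, as a dotted line; genes at least 2-fold higher are red and at least 2-fold lower blue. The inflammatory list had the highest median, 1.20 (0.22 with no expression limit), and the mesenchymal markers the lowest, -0.70.

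The largest difference in the other direction was that of FN1, fibronectin, a glycoprotein of the extracellular matrix. FN1 had a log2 value of 6.66 with compound C, 10.70 with phenformin and 7.16 in control. Its 4 probe sets gave differences of -4.04, -4.01, -3.94 and -3.90, and on each of them phenformin stood apart from compound C and control. On the main probe set, phenformin was above control by 3.54 and compound C differed from control by -0.50. The bases before the start of FN1 (chr2:215436069-215436318, - strand, RefSeq, GRCh38.p14) are shown for the cAMP response element TGACGTCA, in capitals, which begins 183 bases before the start.
FN1: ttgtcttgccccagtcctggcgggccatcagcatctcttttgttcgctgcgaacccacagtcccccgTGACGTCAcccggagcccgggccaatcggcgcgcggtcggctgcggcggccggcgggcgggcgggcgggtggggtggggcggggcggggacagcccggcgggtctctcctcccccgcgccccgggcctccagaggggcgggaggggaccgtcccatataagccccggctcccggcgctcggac
This motif was chosen after the values were seen, and SKIL and FN1 held it, 2 of 17 promoters of the matrix list (11.8%). It stood in 1.77% of all promoters and 3.21% of those of kept genes. SKIL, an inhibitor of SMAD proteins, differed the other way, with 8.19 with compound C, 6.57 with phenformin and 6.77 in control.

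Some further matrix genes were lower with compound C. Of 23 measured TGF-beta targets and matrix genes, 6 were lower by 2-fold or more with compound C and 1 was higher, where 4.38% and 5.53% of all genes were, with a median of -0.42 beside 0.07 over all genes. COL6A1, a chain of collagen VI, had 6.32 with compound C, 8.24 with phenformin and 7.12 in control. THBS1, thrombospondin, had 5.07 with compound C, 6.55 with phenformin and 5.68 in control. This probe set of THBS1 reached the limit on the phenformin array alone, which favours its call. SPP1 (osteopontin), a secreted phosphoprotein that binds integrins, was low with compound C itself, at 6.22, against 9.37 with phenformin and 8.50 in control. Of the 8 measured mesenchymal markers, 3 were lower and 0 higher, beside the same 4.38% and 5.53% of all genes, with a median of -0.70. The 3 markers were FN1, CD44 (-1.15), the hyaluronan receptor, and MMP14 (-1.14), a membrane-bound protease. FN1 and MMP14 were already counted among the 6 lower genes of the matrix list. Against the control array, 0 of the 8 markers were lower with compound C, where 2.70% of all genes were. With phenformin, 2 of the 8 were higher than control, where 2.66% of all genes were. The 7 other probe sets of CD44 gave -0.74 to 0.28 and were all within 2-fold, so that the call for CD44 rests on 1 probe set, and the median over its probe sets was -0.63.

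Targets of YAP and SRF, which switch on genes of adhesion and contraction, were also lower. Of 18 measured, 6 were lower by 2-fold or more with compound C and 0 were higher, where 4.38% and 5.53% of all genes were, with a median of -0.49 beside 0.07 over all genes. AXL, a receptor tyrosine kinase, had 9.67 with compound C, 11.35 with phenformin and 11.19 in control, so that compound C stood apart. CCN1, a matrix-associated signal, had 10.13 with compound C, 11.72 with phenformin and 10.36 in control, so that phenformin stood apart. ACTA2, smooth muscle actin, had 6.62 with compound C, 7.98 with phenformin and 5.97 in control. MYLK, myosin light chain kinase, which is outside the list, had 8.12 with compound C, 10.72 with phenformin and 10.02 in control, and its second probe set gave -2.50 beside -2.60. ACTB differed by 0.08.

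BMP targets were lower with compound C at their best known members. ID3, an inhibitor of helix-loop-helix factors and a direct target of BMP SMADs, had 6.74 with compound C, 9.22 with phenformin and 9.43 in control. ID1, named after its value was seen, had 9.07 with compound C, 9.96 with phenformin and 10.39 in control. For both, phenformin was within 2-fold of control and compound C was not. NOG (noggin), a secreted antagonist that BMPs induce, had 5.90 with compound C, 8.10 with phenformin and 6.98 in control. RUNX2, the transcription factor of bone formation, had 6.67 with compound C, 8.39 with phenformin and 7.38 in control, and SMAD9, a receptor-regulated SMAD, had 5.74 with compound C, 7.05 with phenformin and 6.78 in control.

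Over the 14 measured BMP targets, compound C had 4 lower and 2 higher by 2-fold or more, where 4.38% and 5.53% of all genes were, with a median of -0.41 beside 0.07 over all genes. The 2 that were higher were HES1 (1.11) and MSX1 (1.02), a repressor that Notch induces and a homeobox factor. Against the control array, 5 of the 14 were lower and 0 higher with compound C, where 2.70% and 3.88% of all genes were, and 0 were lower and 2 higher with phenformin, where 2.17% and 2.66% were. Of the SMADs that carry the BMP signal, SMAD9, counted here among the targets, was lower by 2-fold or more (-1.32), and the other two were not. SMAD1 differed by -0.34, SMAD5 by 0.15, ACVR1, a BMP type I receptor, by -0.36, and BMPR1B, another, by 0.29. Of 14 measured genes of a list of receptors, ligands and SMADs that does not hold SMAD9, 2 were higher, INHBA (1.42), an activin subunit, and ACVR2B (1.01), an activin receptor, and 0 were lower, with a median of 0.00 that changed sign under 3 of 9 alternatives.

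**Figure D3:**
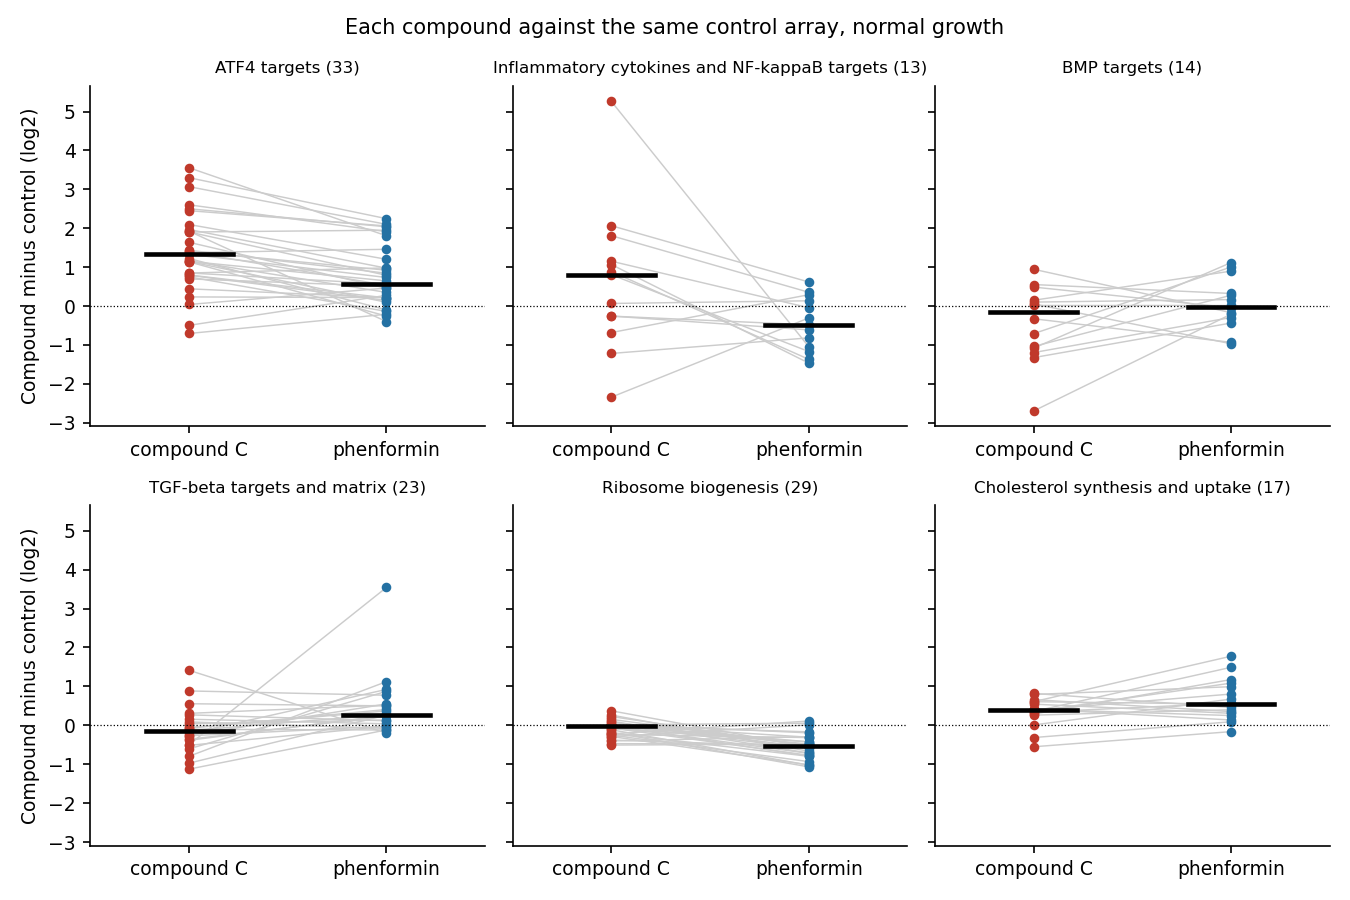
Compound C and phenformin, each minus the control array that both share (log2, y axis), for the genes of 6 lists (points, joined by gene) with medians as black bars. ATF4 targets had medians of 1.33 with compound C and 0.56 with phenformin, and ribosome biogenesis genes -0.02 and -0.54.

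Genes of AMPK itself were mostly at like levels, at the transcript level that an array reads. Of 17 measured AMPK subunits and related kinases, 2 were at least 2-fold higher with compound C and 0 lower, where 5.53% and 4.38% of all genes were, with a median of 0.10 that fell under 0 when each array was centred on its median. PRKAB2, a regulatory beta subunit, had 7.76 with compound C, 6.55 with phenformin and 6.27 in control. STK11 (LKB1), the kinase that activates AMPK, had 7.09 with compound C, 5.82 with phenformin and 6.50 in control. PRKAA1, the catalytic alpha1 subunit, differed by -0.19. Of 14 measured genes of the PGC-1 family and metabolic genes downstream of AMPK, 1 was lower and 0 higher, with a median of 0.01. The 1 was G6PC3 (-1.05), a glucose-6-phosphatase.

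Oxidative phosphorylation, which phenformin inhibits at complex I, was even at the transcript level. Of 54 measured subunits, 1 was lower with compound C, UQCRC2 of complex III (-1.12), and 0 were higher, with a median of -0.06. Of 22 glycolysis and glucose uptake genes, 0 were called either way (median -0.05). Medians this near 0 changed sign under some scalings, for oxidative phosphorylation when the poly-A controls set the scale. Of 19 HIF-1 targets, 1 was lower, CA12 (-1.12), a carbonic anhydrase, and 0 were higher. Over all genes, 4.38% were lower and 5.53% higher. Each compound had 4 of these 19 at least 2-fold above the control array, where 3.88% of all genes were with compound C and 2.66% with phenformin. The medians of the list were 0.68 with compound C and 0.47 with phenformin.

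The genes of the unfolded protein response that the study follows were near each other in normal growth. HSPA5 (GRP78), the main chaperone of the endoplasmic reticulum, had 10.58 with compound C, 11.28 with phenformin and 11.19 in control, while its second probe set differed by 0.25. HSP90B1 (GRP94), another chaperone, had 9.85 with compound C, 10.32 with phenformin and 10.39 in control. Of 22 measured chaperones and folding enzymes, 0 were called either way, where 5.53% of all genes were higher and 4.38% lower, with a median of -0.11. The sensors EIF2AK3 (PERK) and ATF6 differed by -0.12 and 0.59, and XBP1, the factor spliced by IRE1, by 0.14. ERN1, which encodes IRE1, had 6.74 with compound C, 5.14 with phenformin and 4.72 in control, but its second probe set differed by -0.55. EIF4EBP1 (4E-BP1), a repressor of translation initiation, differed by 0.49.

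Ribosome biogenesis genes differed little each but mostly in 1 direction. Of 29 measured, 24 were above 0 with a median of 0.59, beside 4700 of 8429 genes above 0, and 0 were called either way. Over all genes, 5.53% were called higher and 4.38% lower. Against the shared control array the median of the list was -0.02 with compound C and -0.54 with phenformin. With phenformin, 3 of the list were at least 2-fold lower than control, where 2.17% of all genes were. These were NOP16, POLR1C and URB2, at -1.02, -1.02 and -1.07, with -0.11, -0.29 and -0.18 for compound C. NOP16 serves the assembly of the large ribosomal subunit, and POLR1C is a subunit of RNA polymerases I and III. All 3 were named after their values were seen.

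Cholesterol synthesis genes were lower with compound C than with phenformin at some members. HMGCS1, which makes HMG-CoA, had 7.18 with compound C, 8.35 with phenformin and 6.58 in control, and MSMO1, a sterol monooxygenase, had 10.29 with compound C, 11.42 with phenformin and 9.93 in control. The second probe set of HMGCS1 differed by -0.70, and HMGCS1 was under 2-fold in 3 alternatives and MSMO1 in 1. Of 17 measured genes, 2 were lower and 0 higher, where 4.38% and 5.53% of all genes were, with a median of -0.23. Against the control array the median was 0.39 with compound C and 0.55 with phenformin. Of the list, 0 and 4 genes were at least 2-fold higher than control, where 3.88% and 2.66% of all genes were. The sterol regulatory element TCACNCCAC stood in 1 of 15 promoters of the list, that of SREBF2 (6.67%). It stood in 0.875% of all promoters and 0.805% of those of kept genes.

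Cell cycle lists stood close to each other with both compounds, and their counts are to be read beside the 5.53% of all genes that were higher and the 4.38% that were lower with compound C. Of 40 mitosis genes, 3 were lower with compound C, CDC25B (-1.19), ANLN (-1.10) and TOP2A (-1.01), with a median of -0.13, which turned above 0 when the poly-A controls set the scale. Against control the mitosis median was -0.58 with compound C and -0.35 with phenformin. Of 41 S-phase genes, 2 were higher, CCNE1 (1.48), a G1/S cyclin, and ORC6 (1.10), a subunit of the origin complex, with a median of 0.14. Against control the S-phase median was -0.54 with compound C and -0.61 with phenformin. CDKN1B (p27), an inhibitor of cyclin-dependent kinases, had 7.01 with compound C, 8.64 with phenformin and 7.56 in control. Of 22 p53 targets, 2 were lower, TP53I3 (-1.25) and PLK2 (-1.04), with a median of -0.32, and 2 with compound C and 5 with phenformin were at least 2-fold above control, where 3.88% and 2.66% of all genes were.

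Immediate early genes and the feedback genes of ERK went both ways. NR4A2, an orphan nuclear receptor, had 6.11 with compound C, 3.40 with phenformin and 3.37 in control. It reached the limit on the compound C array alone, which favours its call. KLF2, a zinc finger factor, had 8.29 with compound C, 10.01 with phenformin and 7.93 in control. Of 17 immediate early genes, 3 were higher and 1 lower, where 5.53% and 4.38% of all genes were. DUSP1, a phosphatase of MAP kinases, had 10.54 with compound C, 9.22 with phenformin and 8.09 in control, and SPRY2 and DUSP10, further brakes on the pathway, differed by -1.28 and -1.22. PHLDA1 differed by -1.12 on its main probe set, and -1.32 on another, while 4 further ones of the gene gave -0.06 to 0.18. The AP-1 site TGACTCA stood in 0 of 11 promoters of immediate early genes, against 4.16% of all promoters and 2.42% of those of kept genes.

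Further genes among the 15 highest were CEMIP, which depolymerises hyaluronan, with 9.87 with compound C, 7.13 with phenformin and 4.89 in control, and ESM1, a secreted proteoglycan, with 7.10 with compound C, 4.04 with phenformin and 4.79 in control. UPP1, uridine phosphorylase, had 8.33 with compound C, 5.97 with phenformin and 6.30 in control, and IFRD1, a transcriptional regulator, had 9.69 with compound C, 7.32 with phenformin and 7.58 in control. HDAC4, a histone deacetylase, differed by 2.45. For some of the highest genes the probe sets disagreed. CSNK1E, a casein kinase, had 10.06 with compound C and 6.37 with phenformin, but its second probe set differed by 0.62. NUP98 and NUP58, proteins of the nuclear pore, differed by 2.86 and 2.40 on 1 probe set each, and the others gave -0.26 to -0.06 for NUP98 and 0.00 to 0.82 for NUP58. The rest of the 15 were ZNF271P (2.52), CRYBB2P1 (2.40) and CCDC88C, the last with at least 1.98. ESM1 and CRYBB2P1 reached the limit on the compound C array alone, and the limit itself favours such calls.

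Among the 15 lowest were also OPN3, an opsin, with 4.04 with compound C, 7.75 with phenformin and 6.60 in control, and ATP2B4, a calcium pump of the plasma membrane, with 4.14 with compound C, 7.21 with phenformin and 5.71 in control. HLA-DRA, a chain of MHC class II, had 3.62 with compound C, 6.46 with phenformin and 4.74 in control. PLXNA4, a semaphorin receptor, had 4.70 with compound C, 7.41 with phenformin and 5.74 in control. In each of these 4 genes the control lay between the compounds and more than 2-fold from either. The remaining ones were C19orf33 (-2.99), DRC8 (-2.49, with -0.81 and -0.55 on 2 other probe sets), VMP1 (-2.38), METTL27 (-2.37), KRT15 (-2.33), AIG1 (-2.31) and SMIM14 (-2.29). Of the genes in this paragraph, ATP2B4, HLA-DRA, PLXNA4, C19orf33, KRT15 and SMIM14 reached the limit on the phenformin array alone. The limit itself favours such calls.

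Counted over all genes, few moved to opposite sides of the control by 2-fold or more each. These were 4 genes that were higher with compound C and lower with phenformin, CCL20, CSNK1E, CXCL3 and ZNF271P, and 7 that were lower with compound C and higher with phenformin, OPN3, ATP2B4, C19orf33, HLA-DRA, PLXNA4, NOG and KANSL1-AS1. For CCL20, phenformin minus control is only known as -0.67 or lower, since its phenformin value was under the array median. ATP2B4, C19orf33, HLA-DRA and PLXNA4 reached the limit on the phenformin array alone, which favours their higher values there. Both comparisons subtract the same control array, and with it 327 genes (3.88%) were higher and 228 (2.70%) lower with compound C, and 224 (2.66%) higher and 183 (2.17%) lower with phenformin.

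**Figure D4:**
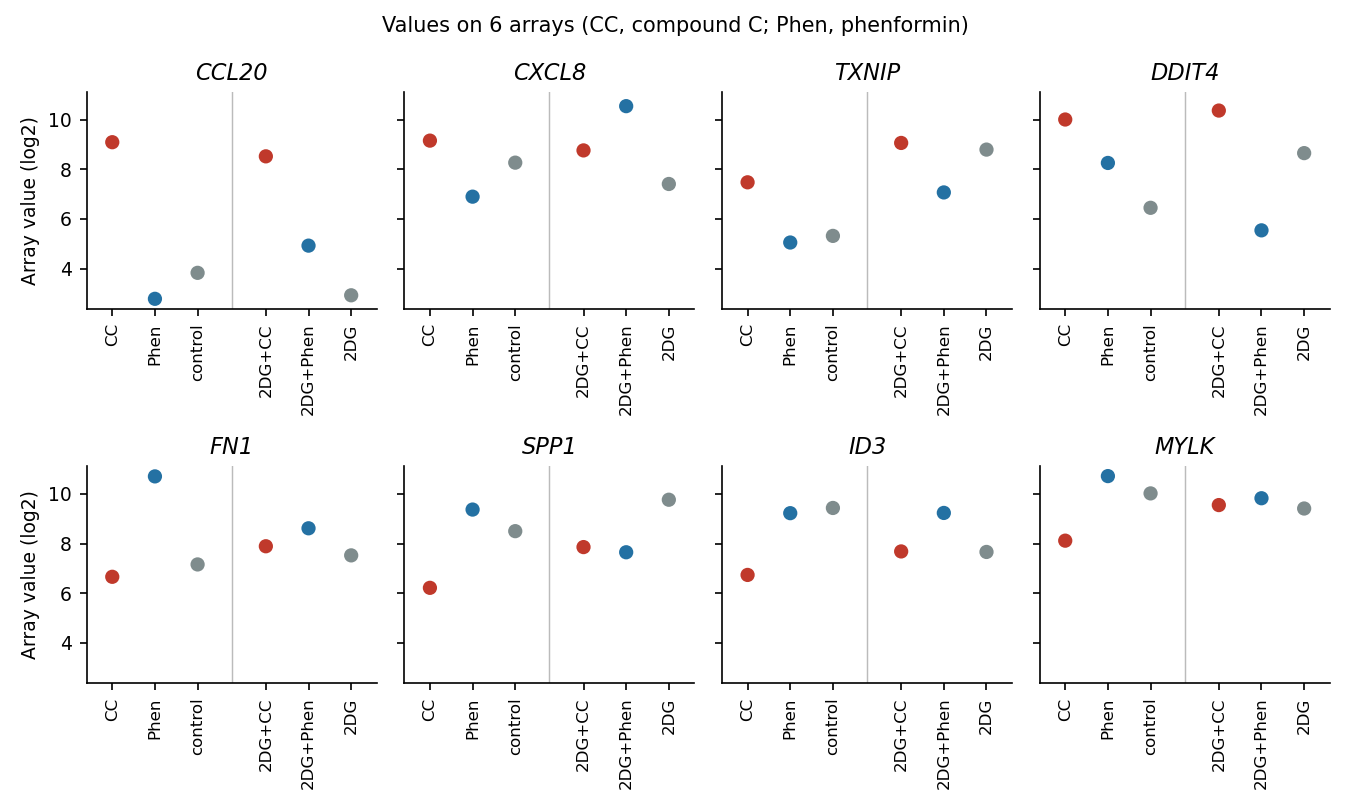
Log2 values (y axis) of 8 genes with compound C, phenformin and control in normal growth (left of each line) and with 2DG added (right), 1 array per point. CCL20 was highest with compound C on both sides, while CXCL8 had 8.76 with 2DG and compound C and 10.54 with 2DG and phenformin.

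The same pair of compounds was also measured in 2DG, on arrays not shared with the pair in normal growth. There the compounds were further apart, with a median absolute difference of 0.54 over probe sets, against 0.37 in normal growth. In 2DG, 2072 probe sets (13.4%) were higher with compound C and 2174 (14.0%) lower, or 985 genes (11.7%) and 1153 genes (13.7%). Of the 1013 probe sets higher in normal growth, 655 (64.7%) were above 0 in 2DG too, where 51.4% of all kept probe sets were, and 336 (33.2%) were at least 2-fold higher. Of the 671 that were lower, 376 (56.0%) were below 0 in 2DG, where 48.5% of all were, and 150 (22.4%) were at least 2-fold lower. Across the 15503 probe sets the differences of both pairs had a Pearson r of 0.20 and a Spearman rho of 0.16, as a description over points that share arrays and in part genes.

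**Figure D5:**
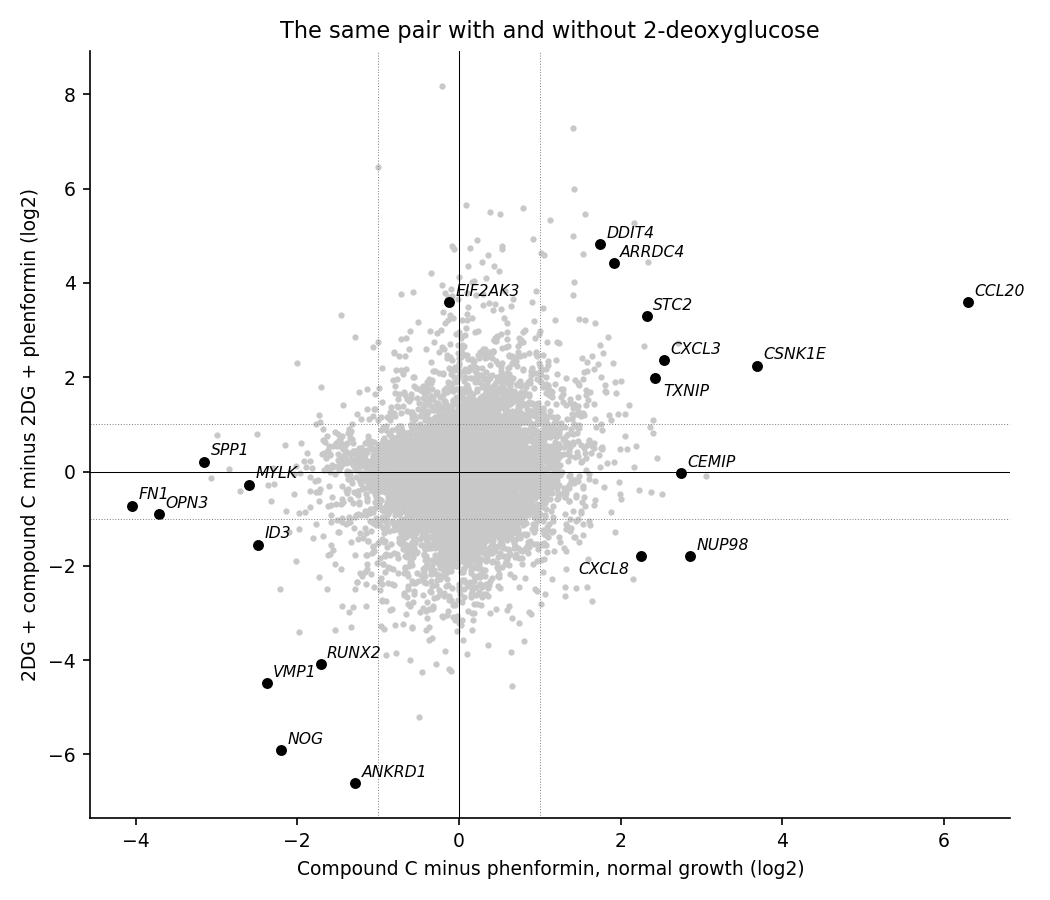
Compound C minus phenformin in normal growth (x axis) and in 2DG (y axis), log2, for 8429 genes (grey) with named genes in black; dotted lines mark 2-fold. CCL20, STC2 and TXNIP were higher with compound C in both, ID3, NOG and RUNX2 lower in both, and FN1 and SPP1 differed by -0.72 and 0.21 in 2DG.

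The members that carried the comparison in normal growth were unlike in 2DG. CCL20 had 8.52 with 2DG and compound C, 4.93 with 2DG and phenformin and 2.93 with 2DG alone. TXNIP had 9.06 with 2DG and compound C, 7.07 with 2DG and phenformin and 8.79 with 2DG alone. Between the compounds, both genes thus differed the same way as in normal growth. For TXNIP, however, phenformin stood apart in 2DG, where compound C stood apart in normal growth. The inflammatory list as a whole did not: in 2DG, 2 of its 13 genes were higher and 5 lower with compound C, where 11.7% and 13.7% of all genes were, with a median of -0.50 against 1.20 in normal growth. In 2DG, CXCL8 differed by -1.78 and IL6 by -1.05. Of the 33 ATF4 targets, 10 were higher and 1 lower in 2DG, with a median of 0.30. DDIT4 and STC2 differed by 4.82 and 3.30, more than in normal growth. STC2 had 7.47 with 2DG and compound C, 4.17 with 2DG and phenformin and 7.86 with 2DG alone, so that phenformin stood apart. DDIT4 had 10.37 with 2DG and compound C, 5.54 with 2DG and phenformin and 8.65 with 2DG alone. Of the 14 BMP targets, 6 were lower and 2 higher in 2DG, where 13.7% and 11.7% of all genes were, with a median of -0.58. RUNX2 differed by -4.08, and NOG was lower by a bound of -5.49. The 2 higher ones, named after their values were seen, were SMURF1 (2.63) and BAMBI (1.01). ID3 differed by -1.55, with 7.68 with 2DG and compound C, 9.23 with 2DG and phenformin and 7.66 with 2DG alone. For ID3, phenformin thus stood apart in 2DG, where compound C stood apart in normal growth. FN1 had 7.89 with 2DG and compound C and 8.61 with 2DG and phenformin, and its difference of -0.72 was far smaller than in normal growth. SPP1 differed by 0.21, OPN3 by -0.91 and MYLK by -0.28. Whether the differences of the pair depend on 2DG was not tested, since each rests on 1 array a group.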

How the data were processed

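Gene expression was measured on Affymetrix U133 Plus 2.0 arrays, 1 per condition. The deposited log2 values are RMA output, for which the authors had background corrected, arrays normalized to each other and probes summarised per probe set. The software version is not given in the sources used here. Normalizing between arrays removes any shift that all transcripts share. The 2 versipelostatin arrays entered only the expression limit, the scaling and the choice of the probe set that reads each gene. Depth does not apply to arrays, and their number limits the precision.

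Control probe sets (62) were left out. A probe set was kept at a log2 value of 6 or more on at least 1 array, and called higher or lower from a 2-fold difference. Symbols came from the platform annotation, updated to RefSeq. Of kept probe sets, 13771 had 1 symbol, 769 several and 963 none. Where several probe sets read a gene, that with the highest mean was used. A value under its array's median made the difference a bound.

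Named genes were the 15 highest, the 15 lowest, up to 10 each way opposite to control, genes the study names, and up to 4 called genes per list (33 lists), 100 in all. The members, lists and rules were chosen with earlier results of these data known. Promoter motifs were searched on both strands of the 250 bases before RefSeq starts, known for 7077 of 8429 genes. The calculation was tested on simulated data. Alternatives were other folds, limits, scalings, probe set choices and counting genes. Calculations ran in Python 3.11.15 with pandas 2.3.3 and numpy 2.4.6, and plots were drawn with matplotlib 3.10.9.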

Additional observations from a re-analysis of the deposited data

Results flagged for a closer look

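For 7 named genes, compound C and phenformin differed by at least 2-fold in both media but in opposite directions, and none of these differences between media was tested, since each group has 1 array. CXCL8 differed by -1.78 in 2DG and by 2.26 in normal growth, DUSP1 by -1.69 and 1.32, SKIL by -1.06 and 1.62, and NUP98, on the 1 probe set of it that differed, by -1.79 and 2.86. The other way round, KLF2 differed by 1.06 in 2DG and by -1.72 in normal growth, ARRDC3 by 1.12 and -1.11, and G6PC3 by 1.33 and -1.05. Over all genes, 285 were at least 2-fold different in both media, and 77 of them were opposite.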

How the results depend on the processing

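Scaling moved the balance of calls most. Of the probe sets called, 60.2% were higher with compound C, against 44.2% (730 higher, 922 lower) after centring arrays on their medians, 48.0% (901 and 975) after quantile normalization and 79.2% (1623 and 426) after poly-A scaling, which moved the median of all genes to 0.25. A fold of 1.5 gave 2882 higher and 1836 lower probe sets and a fold of 3 gave 241 and 146. A limit of 7 gave 663 higher, no limit 1805 higher, dropping probe sets with several possible transcripts 403 lower, and counting genes 466 higher and 369 lower. The share of higher probe sets that pointed the same way in 2DG was 60.9% at a fold of 1.5, 74.3% at a fold of 3 and 41.8% under poly-A scaling, where 24.7% of all probe sets were above 0. The share of lower ones was 59.9% with centring, where 52.6% of all were below 0, and 83.6% under poly-A scaling, where 75.3% were. The median of BMP targets was -0.82 at a limit of 7 and -0.89 with the limit on the compound C or phenformin array alone. That of the inflammatory list was 0.78 at a limit of 7 and 0.22 with no limit, and that of the TXNIP list 0.36 with no limit. PHLDA1 turned to 0.0872 with the median over its probe sets. Of 86 named genes that were called, 26 were under 2-fold in at least 1 alternative. The medians of the ATF4, inflammatory, BMP target, matrix, YAP and SRF, ribosome and cholesterol lists kept their sign under all 9 alternatives. Under poly-A scaling, those of the BMP receptor, immediate early, chaperone, oxidative phosphorylation, fatty acid, mitosis, interferon, glycolysis and G1 lists changed sign.

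No paired analysis was possible because each condition has 1 array. Leaving out a replicate was impossible for the same reason, and the spread between cultures is unknown.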

Other observations

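Lists not described above held few calls, to be read beside the 5.53% of all genes that were higher and the 4.38% that were lower. Of 22 NRF2 targets and glutathione genes, 2 were at least 2-fold higher with compound C than with phenformin, SRXN1 (1.22), which repairs peroxiredoxins, and HMOX1 (1.05), heme oxygenase, and 0 were lower. The antioxidant response element TGACNNNGC stood in 6 of 15 promoters of this list (40.0%), and in neither SRXN1 nor HMOX1. It stood in 11.0% of all promoters and 12.5% of those of kept genes. Of 7 interferon-induced genes, 2 were lower, DDX60 (-1.45) and IRF9 (-1.11), both part of the antiviral response. DDX60 reached the limit on the phenformin array alone, which favours its call. Among 15 G1 cyclins and CDK inhibitors, CCND2 had 6.76 with compound C, 5.69 with phenformin and 6.42 in control, and its second probe set differed by 2.19. Of 12 cytosolic heat shock genes, 1 was lower, DNAJB4 (-1.25), on a probe set that reached the limit on the phenformin array alone. The heat shock element GAANNTTC stood in 2 of 10 promoters (20.0%), against 5.85% of all and 3.96% of those of kept genes. Of 17 tRNA synthetases, SARS1 was higher (1.03) and IARS1 lower (-1.23), and of 28 genes of degradation and translocation at the endoplasmic reticulum, EDEM3 was higher (1.06). Autophagy and lysosome genes had 0 of 29 called either way and a median of 0.34. Among 17 genes of insulin and mTORC1 signalling, 2 were higher, TXNIP (2.42) and DDIT4 (1.75), and 1 was lower, with a median of 0.23. The lower one was IRS1, the insulin receptor substrate, which differed by -1.28 with 6.46 with compound C, 7.74 with phenformin and 6.68 in control.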
